A study of Mus musculus with 4 samples.

Results

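*Rhox5* and *Sycp3* belong to a list of germline genes whose promoters carry DNA methylation in many somatic cells. Both were at lower levels in mouse embryonic stem cells (mESCs) that received *Rhox6* shRNA than in *scramble* cells. They are 2 of the 920 genes in the deposited expression table. The members were chosen by gene name and selected from genes that the study had already called different on these same libraries, so their levels are given as a description, without a test. 46C mESCs, a mouse line used to follow neural differentiation, were infected with *scramble* control lentivirus or with *Rhox6* shRNA lentivirus. All libraries came from cells kept for 24 h in medium with serum, and there were 2 libraries per group. The comparison asks which genes change when *Rhox6*, a homeobox gene of the same X-linked cluster as *Rhox5*, is knocked down. The hairpins were carried by the pLKO.1 vector, the study designed more than 1 hairpin against *Rhox6*, and the labels do not say which of them each library carries. The authors' mean column of the *Rhox6* shRNA group is headed Rh6_Sh1, and the meaning of this heading was not settled. The labels do not name LIF. Separate cultures are not mentioned for the libraries of a group, so SDs and p-values measure the spread between these libraries only, which may be technical.

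Each gene has 1 expression level per library, in a normalized unit that the sources used here do not name. The levels of the listed genes summed to 9586 to 9627 in the *scramble* libraries and to 11853 to 11973 in the *Rhox6* shRNA libraries. Sequencing depth is unknown, because no counts accompany the levels and the low values show no common step. *Rhox6* is not among the listed genes, so the knockdown could not be checked here by its target. Of 10 pluripotent cell markers, *Nanog* and *Klf4* are listed, and both rose in *Rhox6* shRNA cells, from summed levels of 143 to 144 to summed levels of 354 to 372. *Nanog* makes up most of these sums, with means of 126 in *scramble* and 323 in *Rhox6* shRNA cells. *Klf4* had means of 17.4 and 40.3. In the paper's qRT-PCR of candidate genes, *Nanog* was among the exceptions that did not change as in the sequencing. *Pou5f1* and *Sox2* are not listed, and their levels were not analysed here.

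*Rhox5*, formerly *Pem*, encodes a homeodomain transcription factor of the reproductive homeobox cluster. In the mouse it is known from Sertoli cells of the testis, from the epididymis and from extraembryonic tissues, and it is transcribed in mESCs. *Sycp3* encodes a protein of the lateral elements of the synaptonemal complex, the structure that holds homologous chromosomes together in meiosis. In many somatic cells, though not in all tissues named above for *Rhox5*, methylation of cytosines in CpG dinucleotides around the start site keeps such genes silent. Complexes with MAX, MGA and E2F6 also repress many of them.

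*Sycp3* (ENSMUSG00000020059) is on the + strand of chromosome 10, between 88459569 and 88473236 in GRCm38. *Rhox5* (ENSMUSG00000095180) is on the + strand of chromosome X, between 37804842 and 37808876. The submitters' processing notes name mm9, and the files give no coordinates. The places above are those of GENCODE M21. The promoter windows of RefSeq, 250 bases before to 50 after the start site in GRCm38.p6, are printed for both genes to compare their CpG content. Capitals mark each CpG.
*Sycp3*, chr10:88459337-88459636, + strand: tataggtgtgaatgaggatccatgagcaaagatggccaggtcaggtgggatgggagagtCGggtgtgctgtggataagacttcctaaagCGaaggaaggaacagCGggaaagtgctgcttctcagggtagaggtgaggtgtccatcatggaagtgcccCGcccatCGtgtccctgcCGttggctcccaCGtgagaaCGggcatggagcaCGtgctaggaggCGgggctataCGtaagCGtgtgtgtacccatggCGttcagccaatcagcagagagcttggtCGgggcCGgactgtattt
*Rhox5*, chrX:37754358-37754657, + strand: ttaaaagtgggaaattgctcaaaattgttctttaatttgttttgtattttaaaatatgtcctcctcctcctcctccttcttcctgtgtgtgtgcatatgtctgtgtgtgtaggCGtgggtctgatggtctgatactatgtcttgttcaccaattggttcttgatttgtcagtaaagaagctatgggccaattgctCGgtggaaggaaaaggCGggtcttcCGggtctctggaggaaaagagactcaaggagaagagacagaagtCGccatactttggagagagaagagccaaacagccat

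The *Sycp3* window held 15 CpG and the *Rhox5* window held 5, and the median of 32817 promoter windows of mouse genes was 7. The observed over expected CpG ratio was 0.666 for *Sycp3* and 0.363 for *Rhox5*, and the median over these windows was 0.383. By CpG number, *Sycp3* stood above 65.4% of the windows and *Rhox5* above 38.1%. The *Rhox5* window belongs to the start that RefSeq gives, 50.2 kb upstream of the *Rhox5* start in GENCODE M21, and a window at the GENCODE start was not analysed here. For *Sycp3* the GENCODE and RefSeq starts are close, with the GENCODE start at -18 bases from the RefSeq start. No methylation was measured in these libraries.

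Matches to 4 short motifs were searched on both strands of each window. The E-box CACGTG, which MAX and MGA can bind, occurred 2 times in the *Sycp3* window, at positions -64 and -43 from the start site, and 7.15% of all windows held it at least 1 time. The core of the E2F site, TCCCGC, was found at position -147 on the opposite strand of the *Sycp3* window, and 20.0% of all windows held it. Neither motif was found in the *Rhox5* window. A match to the homeodomain core TAAT was found at position -218 of the *Rhox5* window, as in 58.0% of all windows, and the GATA motif AGATAA was in neither window. The E-box and the E2F core each hold 1 of the CpG counted above. The matches describe the letters of these windows and do not show that a factor was bound. They are printed here with 12 bases on each side and the motif in capitals, beside the E2F core of *Meioc*, another meiotic gene described below.
*Sycp3* E-box, chr10:88459511-88459540: gccgttggctccCACGTGagaacgggcatg
*Sycp3* E-box, chr10:88459532-88459561: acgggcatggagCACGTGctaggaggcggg
*Sycp3* E2F core, chr10:88459428-88459457: aaggaaggaacaGCGGGAaagtgctgcttc
*Meioc* E2F core, chr11:102665345-102665374: agcttcctttgaGCGGGAaacatcttcagc

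**Figure D1:**
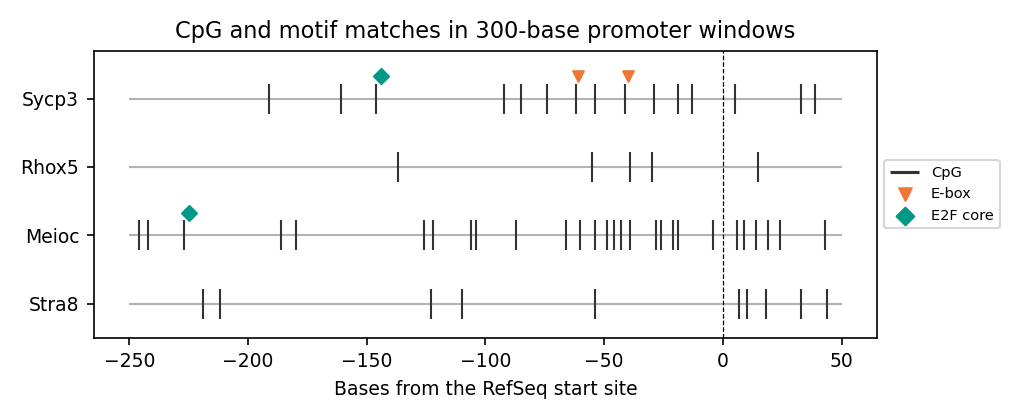
Position of each CpG (vertical lines) and of matches to the E-box (triangles) and to the E2F core (diamonds) in the RefSeq promoter windows of 4 germline genes, in bases from the RefSeq start site (dashed line). *Sycp3* has 15 CpG and both motifs, and *Rhox5* has 5 CpG and neither motif. The same motifs also occur in RefSeq windows of genes that rose. Each *Fkbp6* window holds the E-box 2 times, and the *Tuba3b* window holds 1 E2F core.

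The *scramble* libraries gave *Rhox5* levels of 37.59 and 43.26, and the *Rhox6* shRNA libraries gave 18.85 and 18.40. Both *Rhox6* shRNA libraries were below both *scramble* libraries, and they lay close together. *Scramble* cells averaged 40.4 ± 4.01 (SD, n = 2). *Rhox6* shRNA cells averaged 18.6 ± 0.318 (SD, n = 2), or 46.1% of that mean. On the scale of log2(level + 1), the difference was -1.07 (limma standard error 0.094). Standard errors here and below are those of the limma fit. It moderates the variance of each gene with that of the 920 listed genes. These genes had been selected for a difference on the same libraries, which can favour a small spread. The standard errors may therefore be too small.

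For *Sycp3*, the levels were 38.30 and 34.16 with *scramble* virus against 14.48 and 18.69 with *Rhox6* shRNA virus. The groups did not overlap, but the *Rhox6* shRNA libraries were further apart than those of *Rhox5*. *Sycp3* averaged 36.2 ± 2.93 (SD, n = 2) under *scramble* and 16.6 ± 2.98 (SD, n = 2) under *Rhox6* shRNA, which is 45.8% of the former. The difference of log2(level + 1) was -1.09 (limma standard error 0.141). The *Sycp3* libraries had SDs of log2(level + 1) of 0.114 under *scramble* and 0.245 under *Rhox6* shRNA. The limma standard error is smaller than these SDs alone would give. The added 1 makes differences of log2(level + 1) smaller than the true fold change, most of all for genes near 0.

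**Figure D2:**
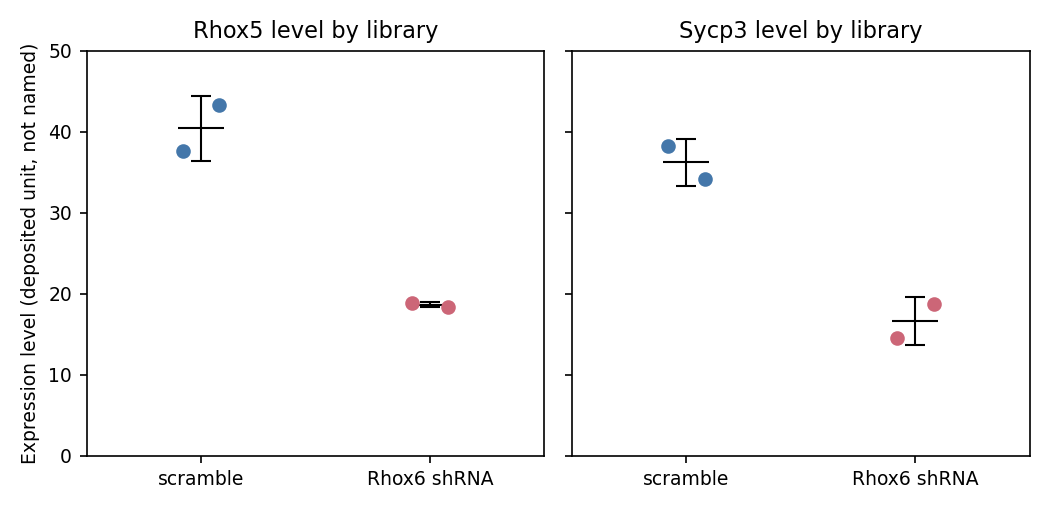
Expression levels of *Rhox5* and *Sycp3* in each library (points), in the unnamed unit of the deposited table, with the mean (line) and SD (bars) of the 2 libraries per group. The *Rhox6* shRNA libraries lie between 14.48 and 18.85 and the *scramble* libraries between 34.16 and 43.26.

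The lowest *scramble* library was 1.99 times the highest *Rhox6* shRNA library for *Rhox5* and 1.83 times for *Sycp3*. Between the *Rhox6* shRNA libraries, the gap in log2(level + 1) was 0.033 for *Rhox5* and 0.347 for *Sycp3*. Of the 920 listed genes, 16.4% had a smaller SD of log2(level + 1) than *Rhox5* in this group and 84.6% had a smaller SD than *Sycp3*. In the *scramble* group these shares were 65.3% and 57.8%. The libraries also ranked differently for the 2 genes. *Scramble* replicate 2 was the higher for *Rhox5* and the lower for *Sycp3*, and *Rhox6* shRNA replicate 2 was the lower for *Rhox5* and the higher for *Sycp3*.

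Both members passed as lower in the limma fit. By the same threshold, an adjusted p under 0.05, the fit called 395 of 920 genes (42.9%) lower and 494 (53.7%) higher. Both *Rhox6* shRNA libraries lay below both *scramble* libraries for the members, as for 407 listed genes (44.2%), and above both for 498 listed genes (54.1%). Every listed gene had been called by the study on this contrast, so nothing is read from the members' calls. Among the 395 genes called lower, the difference of *Sycp3* ranked 119 and that of *Rhox5* ranked 128, counted from the largest fall on the log2(level + 1) scale. The median over these 395 genes was -0.93, with quartiles of -1.13 and -0.71. As a ratio of mean levels, where no 1 is added, the order was the other way. The median ratio of these 395 genes was 0.380, below the 0.461 of *Rhox5* and the 0.458 of *Sycp3*, so the members were lowered less by fold than the median gene called lower.

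**Figure D3:**
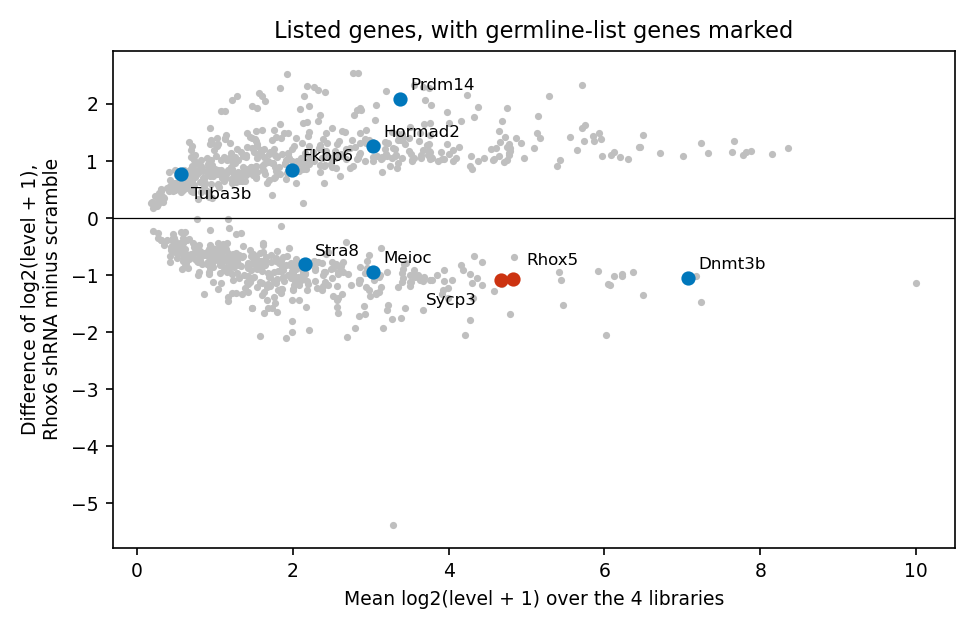
Difference of log2(level + 1), *Rhox6* shRNA minus *scramble*, against the mean of log2(level + 1) over the 4 libraries, for the 920 listed genes (grey), *Rhox5* and *Sycp3* (red) and the other listed genes of the germline lists (blue). *Rhox5* and *Sycp3* lie beside each other, at differences of -1.07 and -1.09.

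The table held other germline genes beside the members, and these went both ways. The share of all annotated genes that are listed was not computed. The counts below therefore do not show whether germline genes are scarce or frequent in the table. Of 42 symbols for germline genes silenced by DNA methylation, 5 are listed. *Rhox5*, *Sycp3* and *Meioc* were called lower, and *Fkbp6* and *Tuba3b* were called higher. Of 43 symbols for genes of the meiotic chromosome axis and recombination, 4 are listed, of which *Sycp3*, *Meioc* and *Stra8* were lower and *Hormad2* was higher. The germline lists together also hold regulators of germ cells and enzymes of DNA methylation. Over all of them, 7 genes are listed beside the members, of which 4 were called higher and 3 lower. *Dnmt3b*, from the enzyme list, is among the 3 lower genes. The median difference of log2(level + 1) of these 7 genes was 0.78, the value of *Tuba3b*, beside 0.56 over all 920 listed genes. *Tuba3b* was near 0 in *scramble* cells, and its difference was 2.18 with 0.1 added in place of 1. The median of the 7 genes thus depends on the added value. As the genes went both ways, neither median describes a typical shift. The genes without a listed level, such as *Dazl*, *Ddx4*, *Mael* and *Sycp1*, were not analysed here. The lists were put together with earlier results of these libraries known, and only genes that the study had called could be counted. The study chose these genes on the same libraries, so the limma p-values below restate that choice and are not independent evidence.

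*Meioc*, which keeps germ cells in meiotic prophase, had levels of 10.63 and 9.93 under *scramble* against 4.68 and 5.10 under *Rhox6* shRNA. It fell by 0.94 on the log2(level + 1) scale (standard error 0.107, limma adjusted p = 0.00104). *Stra8*, which is induced by retinoic acid at the entry into meiosis, was at 5.26 and 4.58 in *scramble* and at 2.43 and 2.30 in *Rhox6* shRNA cells. It fell by 0.81 (standard error 0.128, limma adjusted p = 0.00249). Their mean levels in *Rhox6* shRNA cells relative to *scramble* cells were 0.476 and 0.481, beside 0.461 for *Rhox5* and 0.458 for *Sycp3*. All listed genes passed the authors' cutoff, an absolute log2 fold change of at least 1. That cutoff sets an upper limit on such ratios, so their closeness is not read as a result.

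*Hormad2*, which encodes a protein of the axis of meiotic chromosomes, went the other way. It was at 3.85 and 4.72 in *scramble* and at 12.34 and 11.11 in *Rhox6* shRNA cells, and it rose by a log2 difference of 1.27 (standard error 0.131, limma adjusted p = 0.000797). *Fkbp6*, which acts in the piRNA pathway of male germ cells, was at 1.78 and 2.18 in *scramble* and at 4.51 and 4.2 in *Rhox6* shRNA cells. It rose by a log2 difference of 0.85 (standard error 0.135, limma adjusted p = 0.0026), which fell to 0.19 (limma adjusted p = 0.252) when the libraries were scaled to equal medians of the listed genes. It was the only listed gene of 20 piRNA pathway symbols. *Tuba3b*, an alpha tubulin gene of the testis, rose from 0.10 and 0.16 in *scramble* to 1.02 and 0.85 in *Rhox6* shRNA cells. *Meioc* and *Tuba3b* hold 1 E2F core each in their RefSeq windows, while the windows of *Stra8* and *Hormad2* hold neither the E-box nor the E2F core. *Fkbp6*, which was higher, has 2 RefSeq windows, with 32 and 21 CpG, and each holds the E-box 2 times, as the *Sycp3* window does. The GENCODE start of *Meioc* is at -1869 bases and that of *Stra8* at -785 bases from the RefSeq start, upstream of these windows. The windows of *Meioc*, *Stra8* and *Hormad2* held 28, 10 and 16 CpG.

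**Figure D4:**
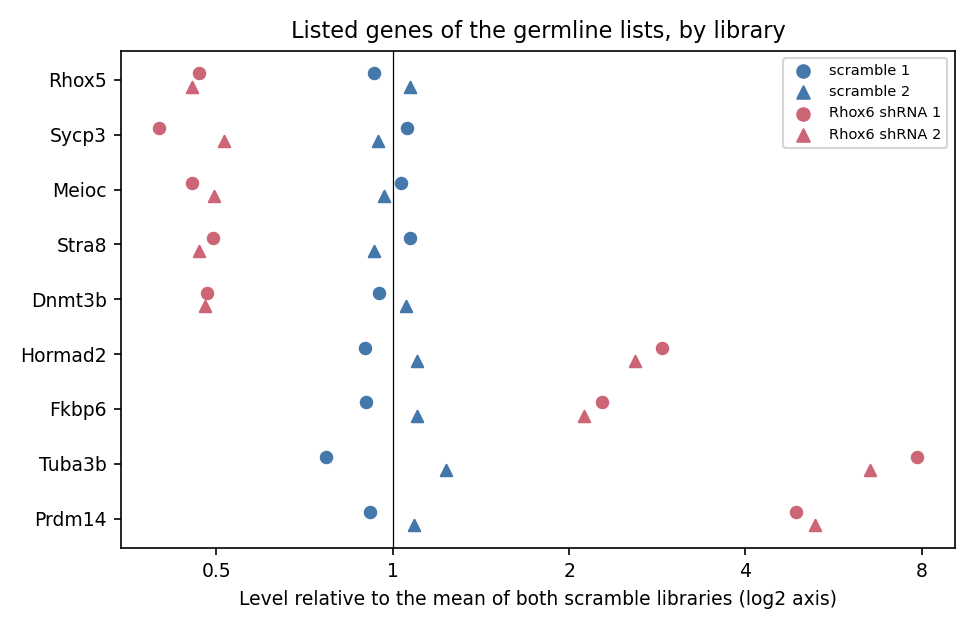
Level in each library relative to the mean of both *scramble* libraries (log2 axis) for the 9 listed genes of the germline lists, with *scramble* in blue, *Rhox6* shRNA in red, circles for replicate 1 and triangles for replicate 2. *Rhox5*, *Sycp3*, *Meioc*, *Stra8* and *Dnmt3b* are lower in both *Rhox6* shRNA libraries, and *Hormad2*, *Fkbp6*, *Tuba3b* and *Prdm14* are higher.

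Of 19 symbols for regulators and markers of primordial germ cells, *Prdm14*, which encodes a repressor of DNA methyltransferase genes in germ cells and mESCs, is listed. Its levels were 3.7 and 4.39 in *scramble* and 19.77 and 21.26 in *Rhox6* shRNA cells. This is a rise by a log2 difference of 2.09 (standard error 0.115, limma adjusted p = 0.000198). Of 25 symbols for enzymes and readers of DNA methylation, *Dnmt3b*, a de novo DNA methyltransferase, is the only listed gene. *Dnmt3b* was at 182.33 and 202.34 in *scramble* and at 92.76 and 92.01 in *Rhox6* shRNA cells, a fall by 1.05 (standard error 0.066, limma adjusted p = 0.000233). *Dnmt3b* and both members were lower in the same libraries, and the DNA methylation of their promoters was not measured. None of the 21 symbols for Polycomb and H3K9 repressors of germline genes and none of 4 genes known to respond to *Rhox5* in Sertoli cells are listed.

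*Rhox5* was the only listed gene of 32 symbols of the *Rhox* family. Within 1 Mb of its start, GENCODE M21 places 84 other genes, 41 of them with *Rhox* symbols, and 0 of the 84 are listed. Of the 28 listed genes on chromosome X, 10 were called lower and 18 higher. Over the 919 listed genes that GENCODE M21 places, 395 were called lower and 493 higher, so the split on chromosome X is not read as a result. No 50-base stretch of the *Rhox5* transcripts was found in a transcript of another gene on either strand (0 of 705). *Sycp3* was the only listed gene of 15 symbols of its superfamily, which includes the X-linked *Xlr* genes. Of the 40 other genes within 1 Mb of *Sycp3*, *Dram1*, an autophagy gene induced by p53, is listed. Its start lies at -80.5 kb from that of *Sycp3*, counted along the chromosome. *Dram1* fell from 1.09 and 1.39 to 0.25 and 0.39, a log2 difference of -0.76 (standard error 0.121, limma adjusted p = 0.00259).

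*Sycp3* lies within *Chpt1*, a choline phosphotransferase gene on the opposite strand (chromosome 10 from 88452745 to 88504073). Of the 1313 stretches of 50 bases in the *Sycp3* transcripts, 564 (43.0%) were found in *Chpt1* transcripts on the opposite strand. Whether the counting used strand is not given in the sources used here, and without it reads of *Sycp3* and *Chpt1* cannot be told apart over this part. *Chpt1* is not among the listed genes. The level of *Sycp3* is uncertain to that extent.

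The listed genes with profiles most like each member were found by the root mean square difference of log2(level + 1) over the 4 libraries, after each gene was centred on its own mean. For *Rhox5* the 5 closest of 919 genes were *Ell3*, *Dnmt3b*, *Gldc*, *Ccdc194* and *Cdkn1c*, at differences of 0.019 to 0.048. *Ell3*, an elongation factor of RNA polymerase II, was at 17.81 and 20.57 in *scramble* and at 8.69 and 8.18 in *Rhox6* shRNA cells. *Dnmt3b* ranked 2, at 0.023. For *Sycp3* the closest were *Cox4i2*, *Cxcl16*, *AI413582*, *Rhd* and *Wfdc2*, at differences of 0.054 to 0.062. *Cox4i2*, a subunit isoform of cytochrome c oxidase, was at 5.42 and 4.81 in *scramble* and at 1.65 and 2.04 in *Rhox6* shRNA cells. *Meioc* ranked 27 for *Sycp3* and 85 for *Rhox5*. *Rhox5* ranked 97 for *Sycp3*, at 0.185, and the likeness over 4 libraries is a description only, as all of these genes had been selected for a difference between the same groups.

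**Figure D5:**
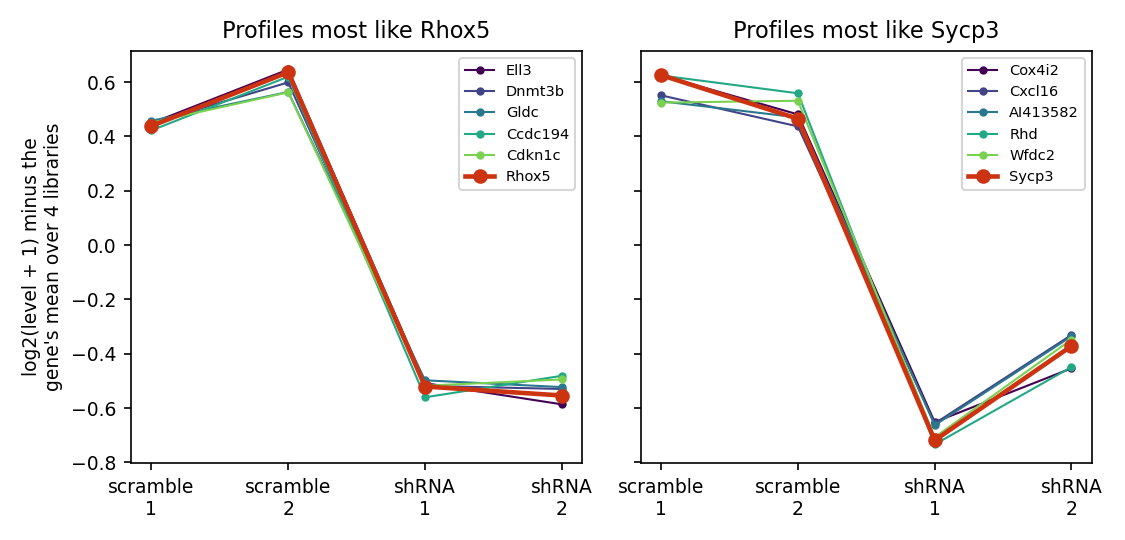
Profiles of log2(level + 1), each centred on the gene's mean over the 4 libraries, for *Rhox5* and *Sycp3* (red) and the 5 listed genes most like each. For *Rhox5* these lie within a root mean square difference of 0.048 and for *Sycp3* within 0.062.

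Markers of extraembryonic lineages moved in the same libraries, and *Rhox5* is known to be expressed in these lineages in the mouse. Of 12 primitive endoderm markers, *Gata6*, *Dab2* and *Cubn* are listed, and all 3 fell. Their summed level was 27.9 to 29.6 in the *scramble* libraries and 6.64 to 7.21 in the *Rhox6* shRNA libraries. Of 12 trophoblast markers, *Krt18* and *Krt19* fell and *Gata3* rose. The summed level of these 3 was 29.8 to 31.3 in *scramble* and 10.9 to 13.2 in *Rhox6* shRNA cells, and *Gata3* was listed at 0 in *scramble* replicate 2. The defining markers *Gata4*, *Sox17*, *Cdx2* and *Elf5* are not listed. Of 10 fibroblast markers, *Twist1* is listed, and it rose by a log2 difference of 1.05. Fewer cells of a type and less RNA per cell cannot be told apart in these bulk libraries, and the part of such cells in the levels of *Rhox5* and *Sycp3* was not tested.

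The values above use the levels as deposited. After scaling the libraries to 1 common sum, a shift of 0.31 on the log2 scale, the difference was -1.37 for *Rhox5* and -1.39 for *Sycp3*. With scaling to equal medians, a shift of 0.88, the differences were -1.92 and -1.93, and the calls over all listed genes were 271 higher and 414 lower. The other germline-list genes moved as well. With equal medians, the difference of *Hormad2* was 0.50 (limma adjusted p = 0.0245), that of *Tuba3b* was 0.51 and that of *Prdm14* was 1.31. The differences of *Meioc*, *Stra8* and *Dnmt3b* were -1.69, -1.47 and -1.92. The members were lower under either scaling. This direction could not reverse, because both scalings lower the *Rhox6* shRNA levels relative to *scramble*. Both scalings rest on genes that had been selected for their change.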

How the data were processed

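RNA was taken from 46C mESCs with Trizol, and 4 libraries were grouped by the sample labels. The deposited table has 920 genes. For each it holds a normalized signal per library, made by the authors in a unit they do not name. Other columns hold the authors' group means, fold change (ratio), log2 fold change, p-value and adjusted p. All 920 genes had an adjusted p under 0.05 and an absolute log2 fold change of at least 1 in the authors' columns, which were used for nothing else. Bowtie 0.12.2 and mm9 are named by the submitters' processing notes. The sources used here do not give the counter or annotation.

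Here log2(level + 1) was compared with limma 3.58.1 (R 4.3.3), with a variance trend and Benjamini-Hochberg adjustment over the 920 genes, called at an adjusted p under 0.05. The fit was tested on simulated data. A count test was not possible. The named genes were the members, every listed gene of the germline lists, the 5 profiles closest to each member and listed genes within 1 Mb. Members and lists were chosen with earlier results of these data known. *Gm4969* with *Meiosin* and *Ccdc36* with *Iho1* are older and newer symbols of the same genes. Promoter windows are from RefSeq (GRCm38.p6) and matched 8 of the 9 listed genes of the germline lists. Alternatives were another pseudocount, a filter on low levels, both scalings, no variance trend, a replicate block and leaving out each library.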

Additional observations from a re-analysis of the deposited data

How the results depend on the processing

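*Rhox5* and *Sycp3* were lower in *Rhox6* shRNA cells under all 10 alternatives. These were a pseudocount of 0.1, a mean level of at least 1, scaling to equal sums or to equal medians, limma without trend, the replicate block and leaving out each library. None of these could reverse the direction. The groups did not overlap for either gene, and both scalings lower the *Rhox6* shRNA levels relative to *scramble*. The differences of log2(level + 1) of *Rhox5* and *Sycp3*, -1.07 and -1.09, moved furthest under the scalings. They were -1.37 and -1.39 with equal sums and -1.92 and -1.93 with equal medians. With 1 library left out, the difference was -1.17 to -0.98 for *Rhox5* and -1.26 to -0.92 for *Sycp3*. The lone library of an arm is then assumed to vary like the others. The number of listed genes called higher was 494, and 271 with equal medians. With 1 library left out, 456 to 477 genes were called higher and 353 to 377 lower. The 7 listed germline-list genes beside the members kept their direction in all 69 values, and 68 of these stayed on the same side of the threshold. *Fkbp6* with equal medians was the exception. *Tuba3b* did not pass the filter on low levels. With the replicate number as a block, the differences of *Rhox5* and *Sycp3* stayed at -1.07 and -1.09, 494 genes were called higher and 402 lower, and no germline-list call changed. Deviations of same-numbered libraries from the group means correlated at -0.044 over 920 genes. This value cannot settle whether such libraries share a batch, as the genes had been selected for a group difference and each group has 2 libraries. Depth is unknown and sets no interval here. With 2 libraries per group, the levels rest on few measurements.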
